A study of Homo sapiens with 4 samples.

Results

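The genes of the YAP/TAZ axis were examined in RNA-seq of UMSCC74B, a cell line derived from a head and neck squamous cell carcinoma. The set held 10 of the 29655 distinct gene names in the count tables and was taken by name: the co-activators YAP1 and WWTR1 (the gene of TAZ), their DNA-binding partner TEAD1, and the target or feedback genes CYR61, CTGF, ANKRD1, AMOTL2, LATS2, AXL and AJUBA. All of them were found under these symbols, CYR61 and CTGF being the older names of CCN1 and CCN2. The study compared 2 control libraries (genotype label WT, treatment label CONTROL, a control shRNA) with 2 PRMT5 KD libraries (treatment label ShRNA, a shRNA against PRMT5, an arginine methyltransferase), all from cells collected 72 h after the shRNA was given. Every library came from the same cell line. The labels describe plasmid transfection and the study's methods describe lentiviral shRNA, and neither says that replicates were separate cultures, so the p-values measure the spread between these libraries, which may be technical.

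YAP and TAZ carry no DNA-binding domain of their own. When the Hippo kinases MST and LATS are active they phosphorylate YAP and TAZ, which are then held in the cytoplasm or degraded. When the kinases are quiet, or when cells spread on a stiff support, YAP and TAZ enter the nucleus, bind TEAD factors and switch on genes for matrix signalling, the cytoskeleton and growth. Some of those targets, AMOTL2 and LATS2 among them, encode inhibitors of YAP and TAZ and so close a feedback loop. The pathway is often active in squamous carcinomas.

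The libraries held 52263508 and 66070664 estimated counts in control and 64331504 and 55413472 in PRMT5 KD. The targeted transcript did not go down in the libraries labelled PRMT5 KD: PRMT5 measured 94.19 and 84.18 CPM (counts scaled to library size) in control and 132 and 149.4 CPM in PRMT5 KD, a log2 fold change of 0.66 (95% interval 0.36 to 0.96, edgeR FDR = 0.00548), and every direction given here is that of the labels. The labels say that PRMT5 mRNA and protein were also assessed by quantitative PCR and immunoblot. The study reports silencing of PRMT5 by its shRNA in an immunoblot, and neither assay was analysed here. Without Control 2 the PRMT5 difference was 0.58 with an edgeR FDR of 0.0677. Defining squamous markers were at or near 0, with KRT5 at 0, 0, 0 and 4 counts and CDH1 at 9, 4, 2 and 4 counts in Control 1, Control 2, PRMT5 KD 1 and PRMT5 KD 2. The squamous list had values in both directions. Of its 10 markers 3 were high enough to test and were called lower, TP63 and ITGB4 passing the filter only through the control group, where they are higher, and ITGA6 in both groups. Among the untested markers, KRT17 went from 5 and 6 counts to 53 and 71 counts, SFN from 3 and 5 to 28 and 86 counts, and KRT14 from 0 and 0 to 11 and 22 counts. The summed squamous markers were at 71.4 to 71.48 CPM in control and 29.03 to 44.38 CPM in PRMT5 KD, of which ITGA6 made up 59.84 and 57.36 CPM and 23.72 and 35.9 CPM. Fibroblast markers differed with the groups: all 7 were called lower, COL3A1 having passed the filter only through the control group, where it is higher. Their summed level was 796.9 to 934.8 CPM in control and 128.4 to 151 CPM in PRMT5 KD. The single testable markers of blood (CD14) and endothelium (PECAM1) were also called lower, PECAM1 having passed the filter only through the control group, where it is higher. Of all genes tested 45.5% were called, and 24.3% were called lower. Ribosomal RNA took 14.21% to 15.25% of counts in control and 18.02% to 26.24% in PRMT5 KD. The part of these differences in the results below was not tested, and in bulk RNA fewer cells of a type and less RNA per cell cannot be told apart.

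TEAD factors recognise the letters GGAATG, and 8 of the 10 genes had promoter windows in the RefSeq set used here (GRCh38.p14, 250 bases before to 50 bases after a transcript start). The letters were searched on both strands, where the opposite strand reads CATTCC. They were present in 7 of the 12 windows and in at least 1 window of 7 of the 8 genes, and WWTR1 had none in its 2 windows. Across all 35116 RefSeq windows 14.03% held the letters, and across the 14297 windows of genes tested here the share was 11.41%. Both shares are of windows, and no share per gene was computed. AMOTL2, AXL and AJUBA each had 2 windows and held the letters in 1, where the stretch lies inside the annotated gene. CTGF with 3 matches and ANKRD1 with 2 had the most, and their stretches are shown because both are textbook TEAD targets. Their fold changes lie on opposite sides of 0, but CTGF was not called and its 95% interval (-1.22 to 0.13) includes 0. All are written along the gene, which lies on the minus strand, with the searched letters in capitals.
CTGF, chr6:131951514-131951563, 169 bases before the start: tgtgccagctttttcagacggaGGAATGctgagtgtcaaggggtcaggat
CTGF, chr6:131951449-131951498, 104 and 95 bases before the start: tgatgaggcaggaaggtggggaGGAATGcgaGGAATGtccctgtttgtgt
ANKRD1, chr10:90921280-90921329, 220 bases before the start: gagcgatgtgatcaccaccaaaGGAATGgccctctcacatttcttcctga
ANKRD1, chr10:90921188-90921237, 128 bases before the start: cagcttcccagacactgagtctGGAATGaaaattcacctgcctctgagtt
In GENCODE 44 the CTGF stretches fall inside an intron of the antisense lncRNA gene LINC01013, which had 0 counts in each library, and the ANKRD1 stretches fall in no annotated gene. A match of letters describes the sequence and does not show binding.

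All 10 genes passed the expression filter in both groups, so none entered the test through 1 group alone. Of these, 3 were called (FDR under 0.05 with a log2 fold change of 0.5 or more in size): ANKRD1 and AMOTL2 were higher and WWTR1 was lower in PRMT5 KD. That was 30% of the genes, against 45.5% of all 11906 genes tested, of which 21.2% were called higher and 24.3% lower. The CPM of the 2 groups did not overlap for 7 of the 10 genes, against 80.5% of all genes tested. The median log2 fold change of the 10 genes was -0.21, and that of all genes tested was -0.0074. The shares called and not overlapping were below those of all genes, so neither count says anything particular of the set, and the account that follows is of single genes.

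**Figure D1:**
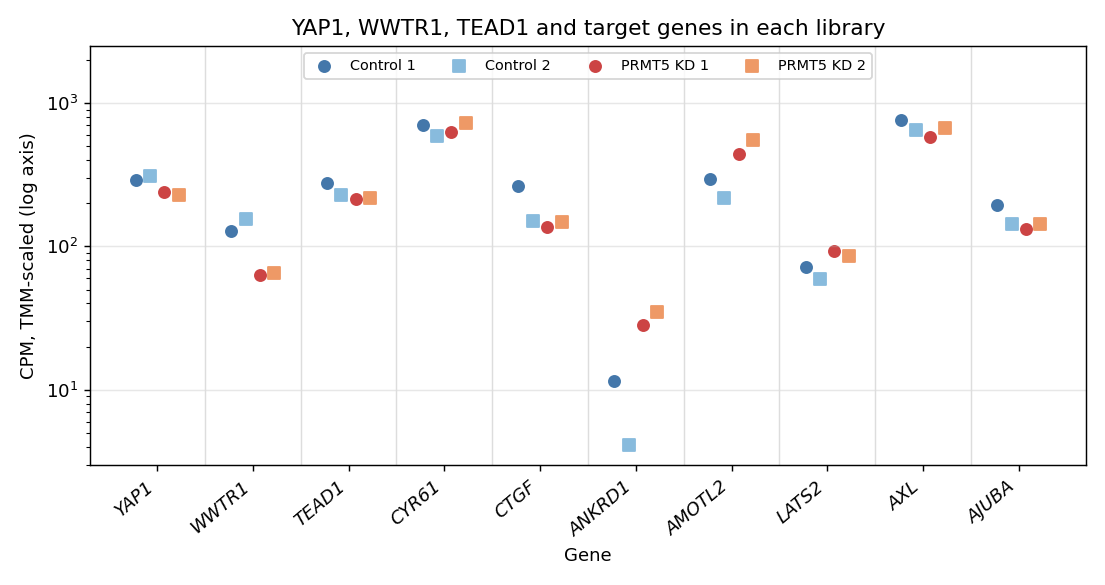
Level of each gene in each library, in TMM-scaled CPM on a log axis, with circles for replicate 1 and squares for replicate 2 (blue, control; red and orange, PRMT5 KD). The 2 groups are farthest apart for ANKRD1 and WWTR1, in opposite directions, while the points of CYR61, AXL and AJUBA interleave.

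The co-activator genes differed in size of change. WWTR1 (chr3:149517235-149736714, minus strand, GRCh38) measured 128.4 and 155.6 CPM in control and 63.2 and 65.64 CPM in PRMT5 KD. Both PRMT5 KD libraries lay well below both controls, and the group means were 142 ± 19.24 and 64.42 ± 1.728 CPM (SD, n = 2). The log2 fold change was -1.14 (SE 0.13, 95% interval -1.46 to -0.82, edgeR FDR = 0.000981), a level 2.20-fold lower. WWTR1 was the gene of the set that was called under every alternative tried, from -1.27 to -0.96. The antisense gene WWTR1-AS1, whose exons overlap those of WWTR1, had 7 to 13 counts in a library, and WWTR1 had 3010 to 7790.

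YAP1 (chr11:102110447-102233424, plus strand) measured 291 and 307.9 CPM in control and 238.4 and 229.2 CPM in PRMT5 KD. The groups did not overlap, but the difference was small: the log2 fold change was -0.36 (SE 0.12, 95% interval -0.64 to -0.078, edgeR FDR = 0.0386), under the fold threshold. The FDR of YAP1 ranged from 0.0158 to 0.224 over the alternatives, and the gene was called under none of them. The interval of WWTR1 lay below that of YAP1, and the difference between the 2 fold changes was not tested.

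Per length, in CPM divided by exon length in kilobases (RPKM), YAP1 stood above WWTR1 in each library. YAP1 was at 46.1 and 48.79 RPKM in control and 37.78 and 36.32 RPKM in PRMT5 KD, and WWTR1 was at 15.37 and 18.62 RPKM in control and 7.566 and 7.858 RPKM in PRMT5 KD. The ratio of YAP1 to WWTR1 was therefore 2.999 and 2.62 in control and 4.993 and 4.622 in PRMT5 KD, with no overlap. The summed level of both co-activator transcripts was 61.47 and 67.41 RPKM in control and 45.35 and 44.18 RPKM in PRMT5 KD. With 2 libraries against 2, a two-sided exact permutation test of such a ratio or sum cannot give a p below 0.3333, so these are given as values.

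TEAD1 (chr11:12674421-12944737, plus strand), the most abundant of the 4 TEAD genes per length, was not called. Its levels were 279 and 229.4 CPM in control and 213.7 and 218.3 CPM in PRMT5 KD, with a log2 fold change of -0.24 (95% interval -0.56 to 0.091, edgeR FDR = 0.184). Control 1 stood apart and Control 2 was close to the PRMT5 KD libraries. With a correction for transcript length and GC content the difference was 0.012, so no direction can be given for TEAD1.

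The paralogs of TEAD1, which bind the same element, did not move as a family. TEAD4 rose from 13.3 and 11.94 CPM to 20.47 and 23.09 CPM (log2 fold change 0.79, edgeR FDR = 0.00494), and without Control 2 its edgeR FDR was 0.0615. TEAD2 fell from 22.21 and 23.55 CPM to 14.15 and 16.05 CPM (log2 fold change -0.60, edgeR FDR = 0.0114), but this call was lost under 5 of the 15 alternatives: with total counts alone (-0.42), with all gene names (-0.49), without Control 1 (edgeR FDR = 0.0637), without Control 2 (edgeR FDR = 0.0968) and without PRMT5 KD 1 (-0.47). TEAD3 overlapped between the groups at 22.66 to 30 CPM (log2 fold change 0.18, edgeR FDR = 0.327). The summed level of TEAD1 to TEAD4 was 46.81 and 43.41 RPKM in control and 43.56 and 44.54 RPKM in PRMT5 KD, which overlap. TEAD1 made up 55.71% and 49.39% of that sum in control and 45.85% and 45.8% in PRMT5 KD. The sum and these shares are without the length and GC correction, which took the TEAD1 difference from -0.24 to 0.012.

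**Figure D2:**
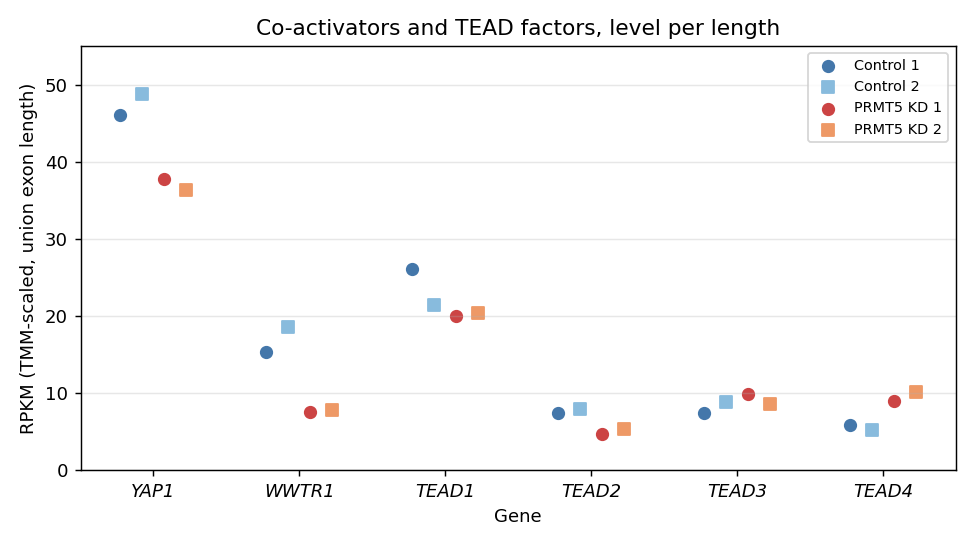
Level per transcript length (RPKM, TMM-scaled, union exon length, linear axis from 0) of the co-activator genes and the 4 TEAD genes, each point a library. YAP1, WWTR1, TEAD1 and TEAD2 are lower and TEAD4 is higher in both PRMT5 KD libraries, though YAP1 and TEAD1 were not called. YAP1 is above WWTR1 in every library.

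The secreted matrix proteins CYR61 and CTGF, the most used readouts of YAP/TAZ activity, were not called. CYR61 (chr1:85580761-85584589, plus strand) measured 697.4 and 590.9 CPM in control and 626.5 and 727.6 CPM in PRMT5 KD. The groups overlapped, with a log2 fold change of 0.072 (95% interval -0.31 to 0.45, edgeR FDR = 0.719), and the sign turned negative without Control 2 or without PRMT5 KD 2. The interval leaves room for a change of up to 0.45 on the log2 scale and does not show that the level was the same.

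CTGF (chr6:131948176-131951372, minus strand) measured 263.8 and 151.3 CPM in control and 137.2 and 147.2 CPM in PRMT5 KD. Control 1 was 1.744-fold above Control 2, and Control 2 was close to both PRMT5 KD libraries. The log2 fold change was -0.55 (SE 0.27, 95% interval -1.22 to 0.13, edgeR FDR = 0.139). It was -0.89 and called lower without Control 2 (edgeR FDR = 0.0227) and -0.089 without Control 1 (edgeR FDR = 0.681), so the control library that is kept decides the value. The ratio of CYR61 to CTGF per length was 1.672 and 2.47 in control and 2.886 and 3.125 in PRMT5 KD.

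ANKRD1 (chr10:90912096-90921087, minus strand), a nuclear and sarcomeric ankyrin-repeat protein and a strong YAP/TAZ target, had the largest fold change of the set. It measured 11.51 and 4.154 CPM in control and 28.49 and 34.69 CPM in PRMT5 KD. Both PRMT5 KD libraries were above both controls, and the controls themselves differed by 2.771-fold. Means were 7.832 ± 5.201 and 31.59 ± 4.384 CPM (SD, n = 2), with a log2 fold change of 2.02 (SE 0.50, 95% interval 0.71 to 3.33, edgeR FDR = 0.0252), a 4.06-fold higher level.

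ANKRD1 was also the gene with the fewest reads, at 456, 208, 1357 and 1660 counts in the 4 libraries. Exact Poisson 95% intervals, which cover counting error only, were 10.48 to 12.62 CPM in Control 1, 3.609 to 4.759 CPM in Control 2, 26.99 to 30.05 CPM in PRMT5 KD 1 and 33.04 to 36.4 CPM in PRMT5 KD 2. The gap between the controls was therefore wider than counting error. The fold change kept its direction with each library left out, from 1.46 to 2.93, but the call was lost without PRMT5 KD 1 (2.20, edgeR FDR = 0.244) and without PRMT5 KD 2 (1.88, edgeR FDR = 0.273). It was also lost with no filter on low counts (edgeR FDR = 0.0775) and with the replicate block and the length and GC correction together (edgeR FDR = 0.0537).

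Of the feedback genes that encode inhibitors of YAP and TAZ, AMOTL2 rose past both thresholds, and LATS2 passed the FDR threshold but not that on the fold. AMOTL2 (chr3:134355347-134375479, minus strand), an angiomotin-like protein that binds YAP and TAZ at junctions and actin, measured 295.7 and 219.3 CPM in control and 443.7 and 554.2 CPM in PRMT5 KD. The groups did not overlap, with means of 257.5 ± 53.98 and 498.9 ± 78.11 CPM (SD, n = 2) and a log2 fold change of 0.95 (SE 0.19, 95% interval 0.49 to 1.42, edgeR FDR = 0.00757). The difference was 0.76 with an edgeR FDR of 0.0725 without Control 2 and stayed called without any other single library.

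The other angiomotins went the other way or did not pass. AMOT fell from 18.4 and 18.11 CPM to 10.01 and 8.004 CPM (log2 fold change -1.02, edgeR FDR = 0.00295). AMOTL1 measured 84.75 and 90.67 CPM in control and 68.74 and 59.45 CPM in PRMT5 KD. Its log2 fold change of -0.45 (edgeR FDR = 0.0202) was under the fold threshold. With the length and GC correction the changes were -0.84 for AMOT (edgeR FDR = 0.00534) and -0.19 for AMOTL1 (edgeR FDR = 0.229). AMOTL2 was the most abundant of these genes per length. Its ratio to AMOTL1, without that correction, was 5.4 and 3.744 in control and 9.994 and 14.43 in PRMT5 KD.

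LATS2 (chr13:20973036-21061586, minus strand), a kinase that phosphorylates YAP and TAZ, measured 71.43 and 58.93 CPM in control and 92.76 and 85.78 CPM in PRMT5 KD. The groups did not overlap, and the log2 fold change was 0.45 (SE 0.13, 95% interval 0.14 to 0.77, edgeR FDR = 0.0271). LATS2 lay close enough to the fold threshold that it was called higher under 8 of the 15 alternatives, for example at 0.51 with the length and GC correction, and its change ranged from 0.32 to 0.63. Its paralog LATS1 overlapped between the groups at 98.64 and 86.97 CPM in control and 87.34 and 78.47 CPM in PRMT5 KD (log2 fold change -0.16, edgeR FDR = 0.296). Per length LATS2 was near LATS1 in control, with ratios of 1.096 and 1.025, and above it in PRMT5 KD, with ratios of 1.606 and 1.654.

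The remaining members overlapped between the groups. AXL (chr19:41219223-41261766, plus strand), a receptor tyrosine kinase for GAS6, measured 766.6 and 653.1 CPM in control and 579.3 and 670.1 CPM in PRMT5 KD (log2 fold change -0.18, 95% interval -0.56 to 0.19, edgeR FDR = 0.348). AJUBA (chr14:22971177-22982551, minus strand), a LIM-domain protein that restrains LATS kinases, measured 193 and 142.4 CPM in control and 131.6 and 144 CPM in PRMT5 KD (log2 fold change -0.28, 95% interval -0.68 to 0.12, edgeR FDR = 0.19). Neither was called under any alternative. The exons of AJUBA overlap those of another annotated protein-coding gene on the same strand, so its counts could include reads of that gene. The same holds for AMOTL2 and the pseudogene RPL39P5. Neither overlapping gene had counts of its own to compare.

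Of the LIM proteins related to AJUBA, LIMD1 measured 119.5 and 112.3 CPM in control and 125.3 and 143.3 CPM in PRMT5 KD (log2 fold change 0.21, edgeR FDR = 0.173), and with the length and GC correction it was called higher at 0.56 (edgeR FDR = 0.00882). WTIP was called higher, from 4.417 and 2.796 CPM to 7.411 and 8.464 CPM (log2 fold change 1.14, edgeR FDR = 0.0115). WTIP passed the expression filter only through the PRMT5 KD group, where it is higher, and its call was lost without Control 2 (0.85, edgeR FDR = 0.0835).

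**Figure D3:**
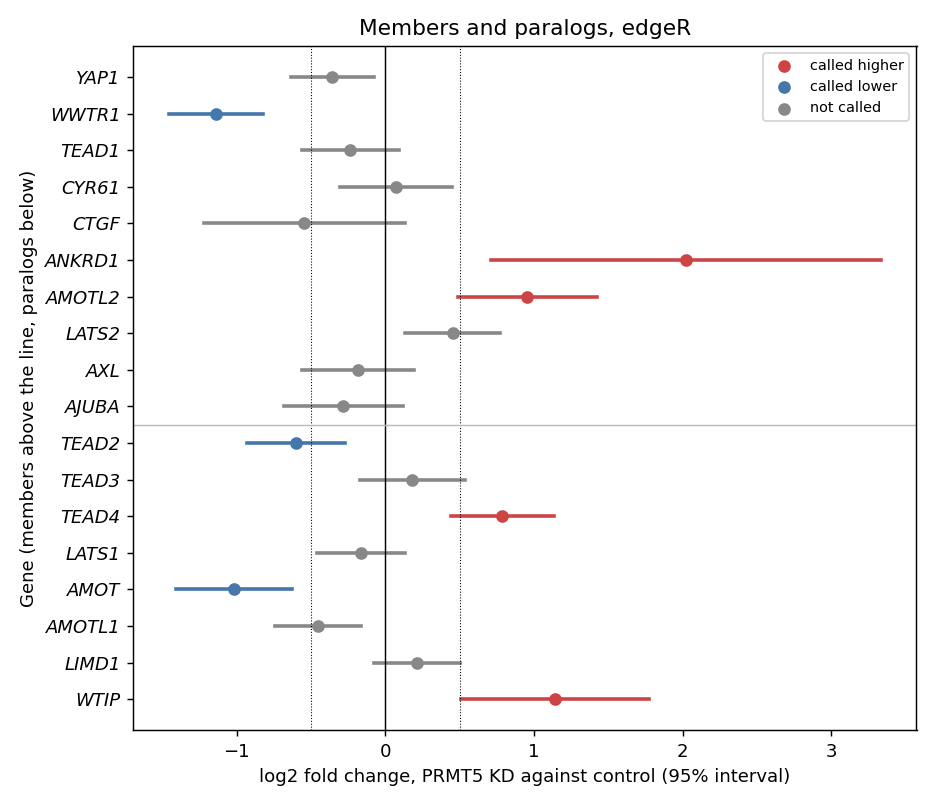
Log2 fold change of PRMT5 KD against control with its 95% interval for the 10 genes and, under the grey line, the paralogs of TEAD1, LATS2, AMOTL2 and AJUBA. Red marks genes called higher and blue genes called lower, and the dotted lines mark the fold threshold of 0.5. Only WWTR1, ANKRD1 and AMOTL2 are coloured among the 10.

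The levels per length also give an order of the genes, which depends on the length used, here that of all annotated exons together. In control it ran from CYR61 (188.6 and 159.8 RPKM) through AXL (149.3 and 127.2), CTGF (112.8 and 64.7), YAP1, AMOTL2 (45.63 and 33.85), AJUBA (32.8 and 24.19), TEAD1 (26.08 and 21.44), WWTR1 and LATS2 (12.73 and 10.5) to ANKRD1 (6.43 and 2.321 RPKM). Of the neighbours in this order, the values of AJUBA and TEAD1 overlapped. The gap was smaller than the spread between the libraries of either gene for CYR61 and AXL, AXL and CTGF, YAP1 and AMOTL2, AMOTL2 and AJUBA, and TEAD1 and WWTR1. In PRMT5 KD the order was CYR61 (169.4 and 196.7 RPKM), AXL (112.8 and 130.5), AMOTL2 (68.49 and 85.54), CTGF (58.69 and 62.94), YAP1, AJUBA (22.37 and 24.48), TEAD1 (19.97 and 20.4), ANKRD1 (15.92 and 19.38), LATS2 (16.53 and 15.28) and WWTR1. In that order the values of ANKRD1 and LATS2 overlapped and those of other neighbours did not, AMOTL2 stood above YAP1 and CTGF, and WWTR1 came last. The gap between AMOTL2 and CTGF was smaller than the spread between the libraries of AMOTL2. Likewise, the gap between AJUBA and TEAD1 was smaller than the spread of AJUBA, and that between TEAD1 and ANKRD1 smaller than the spread of ANKRD1. In average level per length CYR61 and AXL were at the 99.27 and 98.73 percentiles of all genes tested.

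Replicates of a group also differed in a shared direction across the set. Of the 10 genes, 8 were higher in Control 1 than in Control 2, all but YAP1 and WWTR1, whereas 47% of all genes tested were higher in Control 1. In PRMT5 KD, 8 of the 10 were higher in replicate 2, all but YAP1 and LATS2, against 50.08% of all genes tested. The 3 related lists described below had lower shares than the set. For Control 1 and PRMT5 KD 2 these were 56.25% and 62.5% of other YAP/TAZ targets and 61.54% and 38.46% of other Hippo genes. For SRF/MRTF targets they were 50% and 33.33%. Among the 10 genes, the targets with the widest gap between the controls were ANKRD1 (2.771-fold), CTGF (1.744-fold), AJUBA (1.355-fold) and AMOTL2 (1.348-fold). The gap between the controls was wider than the gap between the groups for CTGF, AJUBA, TEAD1, CYR61 and AXL.

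**Figure D4:**
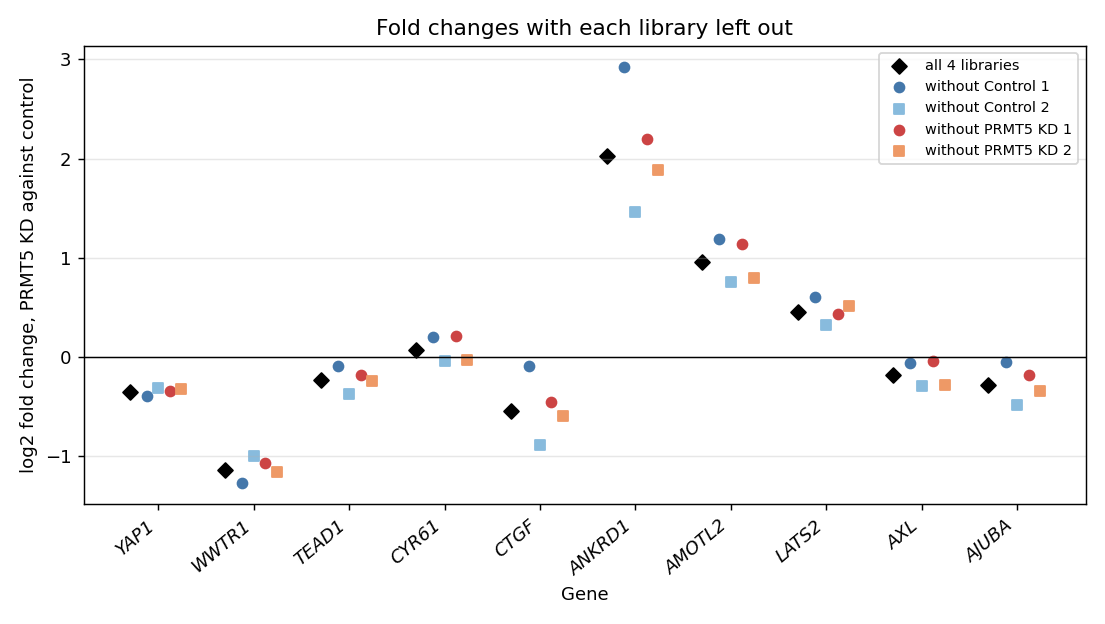
Log2 fold change of each gene with all 4 libraries (black diamond) and with each library left out in turn. ANKRD1 spans 1.46 to 2.93 and CTGF spans -0.89 to -0.089 depending on which control is kept, while WWTR1 stays between -1.27 and -0.99.

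Transcript length moved with the fold changes over all genes: with the genes split by exon length into 10 bins of like size, the shortest bin had a median log2 fold change of 0.25 and the longest one of -0.29. ANKRD1 is in the shortest bin, and its change was 1.71 after the length and GC correction (edgeR FDR = 0.044). WWTR1 lies in a bin with a median of -0.11, and its change was -0.996 after the correction (edgeR FDR = 0.00154). AMOTL2 lies in a bin with a median of -0.042, and its change was 1.14 (edgeR FDR = 0.0042).

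The pathway around these genes was read from 3 further lists. Of 27 other Hippo pathway genes 26 were tested, VGLL1 having no counts, and 4 were called higher and 6 lower. That was 38.46%, below the 45.5% of all genes tested (21.2% higher and 24.3% lower). The list's median log2 fold change was 0.047. With the length and GC correction 13 genes of this list were called, 8 higher and 5 lower. The balance of directions turned in the list as it did over all genes tested. Over all genes it went from 2522 higher and 2895 lower to 2861 higher and 2498 lower. WTIP, which passed the filter only through PRMT5 KD, is 1 of the 4 genes of the list called higher without that correction. WWC1 (KIBRA, an activator of LATS) went from 12.85 and 8.128 CPM to 48.52 and 62.42 CPM (log2 fold change 2.41, edgeR FDR = 0.00118), and MOB1A, a LATS co-factor, from 61.41 and 68.64 CPM to 94.23 and 94.88 CPM (log2 fold change 0.54, edgeR FDR = 0.00797), a call that was lost without Control 1 (0.46, edgeR FDR = 0.0727). The atypical cadherin FAT1 went from 1223 and 1183 CPM to 463.2 and 433.4 CPM (log2 fold change -1.42, edgeR FDR = 0.000571), and FAT4 from 188.7 and 177.5 CPM to 64.88 and 87.18 CPM (log2 fold change -1.27, edgeR FDR = 0.00136). Both FAT genes are long, and after the length and GC correction their changes were -1.03 and -0.82, both still called.

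The 16 other YAP/TAZ target genes were all tested, and 3 were called higher and 5 lower. That was 50%, near the 45.5% of all genes tested, and the list's median log2 fold change was -0.25. NT5E, the ectonucleotidase CD73, rose from 844.2 and 949.5 CPM to 1820 and 1985 CPM (log2 fold change 1.08, edgeR FDR = 0.00177). FJX1 rose from 41.57 and 32.51 CPM to 144.5 and 124.1 CPM (log2 fold change 1.86, edgeR FDR = 0.00046). PTPN14, a phosphatase that binds and restrains YAP, fell from 408.2 and 416.1 CPM to 109.1 and 94.23 CPM (log2 fold change -2.02, edgeR FDR = 0.000268). TGFB2, a TGF-beta ligand, fell from 367.1 and 255.4 CPM to 131.9 and 96.15 CPM (log2 fold change -1.45, edgeR FDR = 0.00452), and MYOF, a membrane-repair ferlin, from 1152 and 1124 CPM to 433.6 and 518 CPM (log2 fold change -1.26, edgeR FDR = 0.00112). Genes of this list were called in both directions, and so were all genes tested (21.2% higher and 24.3% lower).

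SRF with its MRTF co-activators answers to actin and shares several targets with YAP/TAZ. Of 13 genes on this list 12 were tested, and 1 was called higher and 4 lower. That was 41.67%, near the 45.5% of all genes tested, and the list's median log2 fold change was -0.34. The cytoskeletal genes MYL9 (156.5 and 204.2 CPM to 76.51 and 49.13 CPM, log2 fold change -1.52, edgeR FDR = 0.00505), ACTG1 (2413 and 2938 CPM to 1579 and 1268 CPM, -0.91, edgeR FDR = 0.00737) and VCL (579.9 and 616.6 CPM to 357.4 and 304 CPM, -0.86, edgeR FDR = 0.00344) fell. FHL2, a LIM-domain cofactor, rose from 30.74 and 29.5 CPM to 72.83 and 46.35 CPM (log2 fold change 0.98, edgeR FDR = 0.0131). The ACTG1 call was lost without Control 2 (edgeR FDR = 0.078), and the FHL2 call without Control 1 (edgeR FDR = 0.0711) and without Control 2 (edgeR FDR = 0.0885). The summed fibroblast markers given above were lower in the same PRMT5 KD libraries, and their part in the list values was not tested.

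**Figure D5:**
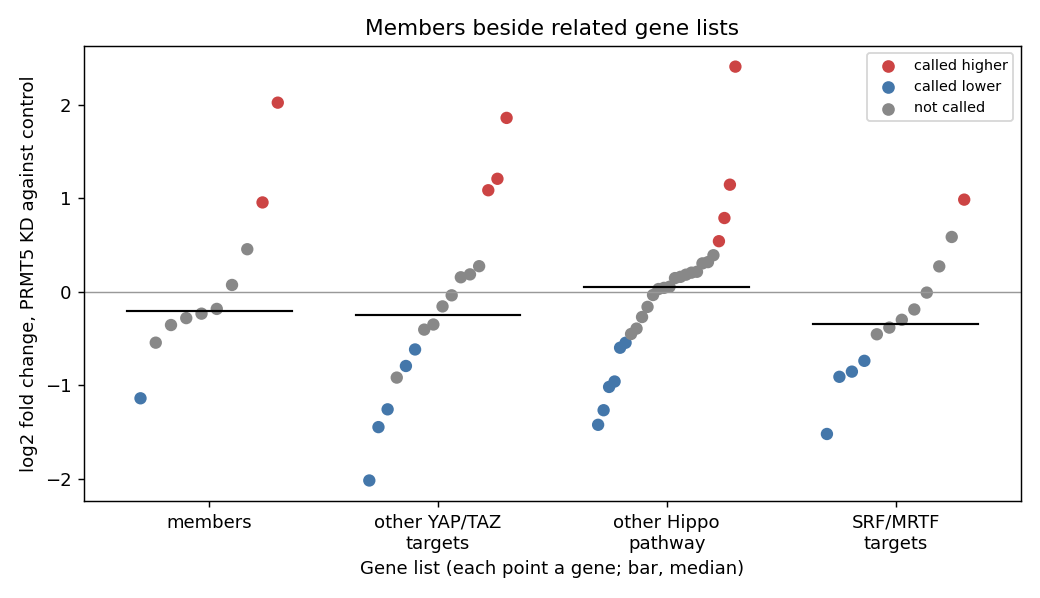
Log2 fold change of each tested gene of the YAP/TAZ set and of the 3 further lists, ordered within a list, with the list's median as a black bar. Red and blue points, called higher and lower, are found in every list, and the medians lie between -0.34 and 0.047.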

How the data were processed

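RNA-seq of UMSCC74B cells was analysed for 2 control and 2 PRMT5 KD libraries. The authors deposited estimated counts per gene, 1 table per library, not normalized. Per the submitters' processing notes FastQC, Trim Galore, STAR, Salmon and DESeq2 were used with GRCh38, while the study's methods describe STAR and FeatureCounts, so the counting program is uncertain. Names turned into dates (28 of 29744) were dropped, same-name entries were summed, and counts were rounded. Names were matched to GENCODE 44 directly (21877), by RefSeq synonym (1577) or by RefSeq gene number (1149), of which 18961 were protein-coding. A minimum of 0.5 RPKM (union exon length) in both libraries of a group was required, and genes past it were tested with the edgeR 4.0.16 quasi-likelihood test (robust, TMM, no replicate term, R 4.3.3), with Benjamini-Hochberg adjustment (FDR) over all 11906 genes. Tested genes held 41889034 to 53584190 counts per library, and the biological coefficient of variation was 0.1419. DESeq2 1.42.0, other scalings and filters, a length and GC spline offset with 4 degrees of freedom, a replicate block and leaving out each library were alternatives. The test was first tried on simulated counts in which far fewer genes were changed than were called here, so that trial does not test the scaling.

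The set and lists were chosen with earlier results of these data known, and the lists come from general knowledge. Named genes were all 10 members, PRMT5, the paralogs, and up to 3 called genes per direction and list whose average log2 CPM reached 3. KRT5, KRT14, KRT17, SFN, CDH1, TP63, ITGB4, ITGA6, COL3A1, CD14, PECAM1 and VGLL1 were named after their values were seen. TEAD1 and CYR61 had no promoter window in the table used.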

Additional observations from a re-analysis of the deposited data

How the results depend on the processing

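Over the 15 alternatives, 446 values of named genes kept their direction and side of the thresholds, 17 lost a call, 12 gained one and 5 changed sign: TEAD1 (0.012 with the length and GC correction and 0.018 with the replicate block added to it), CYR61 (-0.043 to 0.21 with 1 library left out, below 0 without Control 2 and without PRMT5 KD 2) and LATS1 (0.014 with total counts alone). At a log2 fold change of 1 or more in size, 2560 genes, 5 other Hippo genes and 1 SRF/MRTF gene were called, and with FDR alone 5 members were. Leaving out 1 library gave 3107 to 5708 genes called, the fewest without Control 2, with 6 to 11 other Hippo genes, 3 to 7 SRF/MRTF genes, 2 to 4 members, 6 to 10 other YAP/TAZ targets and a PRMT5 change of 0.57 to 0.78. Each of these fits leaves 1 group with 1 library, assumed to vary like the other group. The cause was not tested.

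The replicate block gave 5182 genes and 3 members called and changed no named call. Deviations of same-numbered libraries had a correlation of -0.1011 across genes, and the crossed pairing, added after seeing the data, gave 5485 genes. Nothing in the labels or methods says that the numbers pair libraries. Scaling by total counts alone took the median of all genes from -0.0074 to 0.17 and put 61.45% of calls higher (3507 of 5707), against 2522 of 5417 with TMM, and the length and GC correction put 53.39% higher, with 8 other Hippo genes higher and 5 lower. The counting intervals of ANKRD1, the member with the fewest reads, did not overlap between libraries.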
